A study of Mus musculus with 84 samples.

Results

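Peaks of 4 histone marks were examined at 9 mouse genes of 1 signalling family: the receptor gene Trem2, the Fc receptor genes Fcgr1, Fcgr2b, Fcgr3 and Fcgr4, the adaptor genes Fcer1g, Tyrobp and Hcst, and the kinase gene Syk. They were chosen by name, as the genes of this receptor and adaptor module, out of 21851 protein-coding genes. Earlier results of these data were known when the choice was made. The marks were measured by CUT&Tag, in which a transposase tethered to an antibody cuts out and tags the DNA around a mark, in nuclei pulled down from snap-frozen epididymal fat. The mice were AdipoERCre x NuTRAP. In these mice an adipocyte-driven, tamoxifen-inducible Cre switches on a nuclear tag before the diet begins, so that the label marks cells that expressed the driver at that time.

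All 8 diet groups carried the same Cre and reporter and had received tamoxifen. A 12-week cohort held H, taken at 18 weeks of age after 12 weeks of high-fat diet (HFD), and HC, taken at 26 weeks after 12 weeks of HFD and then 8 weeks of chow. Their age-matched controls, C and CC_s, ate chow throughout. A 25-week cohort held HH, taken at 31 weeks of age after 25 weeks of HFD, and HHC, taken at 39 weeks after 25 weeks of HFD and then 8 weeks of chow, with CC_l and CCC as the respective chow controls. There were 84 libraries in 32 groups of mark and diet, 20 groups with 3 libraries and 12 with 2. H and HH against their controls are called the obese comparison, and HC and HHC against theirs the weight-loss comparison.

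Fc receptors bind the constant part of antibodies, and TREM2 binds lipids and lipoprotein particles on the surface of myeloid cells. Most of these receptors carry no signalling motif of their own and depend on the small membrane adaptors FcRγ (Fcer1g) and DAP12 (Tyrobp), whose phosphorylated motifs recruit the tyrosine kinase SYK. In fat, the module is best known from macrophages that surround dying adipocytes in obesity, so its genes are not typical adipocyte genes. Of the marks, H3K4me3 sits at promoters in use, H3K27ac also at enhancers in use, and H3K4me1 mainly at enhancers. Polycomb proteins lay down H3K27me3 where genes are kept silent.

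The genes lie at 5 places in the genome (build GRCm38). On chromosome 1, Fcgr2b (chr1:170958617-170976547, minus strand), Fcgr4 (chr1:171018920-171029761, plus strand) and Fcgr3 (chr1:171051174-171064935, minus strand) form a cluster, and Fcer1g (chr1:171229572-171234365, minus strand) lies 164636 bp beyond Fcgr3. Tyrobp (chr7:30413760-30417585, plus strand) and Hcst (chr7:30417712-30419854, minus strand) end tail to tail, 126 bp apart, so that a wide peak can reach both. Fcgr1 (chr3:96282909-96293969, minus strand), Trem2 (chr17:48346401-48354147, plus strand) and Syk (chr13:52583173-52648792, plus strand) lie apart from the others. A promoter was the window of 2000 bp on either side of each start site, between 4001 and 8266 bp in all. The window of Hcst overlaps that of Nfkbid, an inhibitor gene of NF-κB, and no other of the 9 windows overlaps that of another gene. The flanks of Fcgr2b, Fcgr3 and Fcgr4 share sequence, as do those of Tyrobp and Hcst, and values of neighbours are therefore not independent.

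The promoters of 5 genes are given here from RefSeq (GRCm38.p6), 5′ to 3′ on the strand of the gene, from 250 bases before the start site to 50 bases into the gene. Trem2, Fcgr1 and Fcgr4 are shown because they took up H3K4me3 peaks together, Fcgr2b because it carried H3K27me3 in every control library, and Fcer1g because it was marked in most control libraries. Capitals mark GAGGAA or its reverse complement TTCCTC, a purine-rich sequence of the kind bound by the myeloid factor PU.1. Both strands were searched, and 28.3% of 32851 promoters of this length hold it.
Trem2 (chr17:48346151-48346450, plus strand): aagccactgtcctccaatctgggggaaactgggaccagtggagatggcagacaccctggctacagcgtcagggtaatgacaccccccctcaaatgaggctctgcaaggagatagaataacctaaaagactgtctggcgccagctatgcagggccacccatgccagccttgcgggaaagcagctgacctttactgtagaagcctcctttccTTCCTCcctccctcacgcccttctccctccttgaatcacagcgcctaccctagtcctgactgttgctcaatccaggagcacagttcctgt
Fcgr1 (chr3:96293920-96294219, minus strand): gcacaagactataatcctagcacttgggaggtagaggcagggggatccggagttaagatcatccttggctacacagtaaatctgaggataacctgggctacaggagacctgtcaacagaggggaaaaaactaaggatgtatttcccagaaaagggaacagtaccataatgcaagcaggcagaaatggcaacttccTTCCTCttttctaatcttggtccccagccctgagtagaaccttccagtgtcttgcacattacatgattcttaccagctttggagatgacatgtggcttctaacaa
Fcgr4 (chr1:171018676-171018975, plus strand): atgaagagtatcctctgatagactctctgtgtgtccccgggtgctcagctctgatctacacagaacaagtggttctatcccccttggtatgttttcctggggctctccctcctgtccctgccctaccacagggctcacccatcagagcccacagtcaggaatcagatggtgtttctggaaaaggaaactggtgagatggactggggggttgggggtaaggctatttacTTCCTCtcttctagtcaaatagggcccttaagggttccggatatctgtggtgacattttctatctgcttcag
Fcgr2b (chr1:170976022-170976321, minus strand): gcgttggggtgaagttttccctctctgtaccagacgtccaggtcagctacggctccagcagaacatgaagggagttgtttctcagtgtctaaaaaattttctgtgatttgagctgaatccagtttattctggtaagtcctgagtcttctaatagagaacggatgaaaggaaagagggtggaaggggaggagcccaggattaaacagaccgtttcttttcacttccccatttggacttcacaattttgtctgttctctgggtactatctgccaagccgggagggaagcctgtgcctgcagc
Fcer1g (chr1:171234300-171234599, minus strand): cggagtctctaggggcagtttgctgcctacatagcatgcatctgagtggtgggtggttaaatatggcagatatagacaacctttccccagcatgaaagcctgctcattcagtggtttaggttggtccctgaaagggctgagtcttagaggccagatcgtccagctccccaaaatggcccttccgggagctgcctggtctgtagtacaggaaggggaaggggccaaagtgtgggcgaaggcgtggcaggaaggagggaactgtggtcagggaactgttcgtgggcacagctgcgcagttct

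In the first 3 of these sequences the marked letters read TTCCTC on the gene's own strand and begin 40 (Trem2), 55 (Fcgr1) and 22 (Fcgr4) bases before the start. They are not in the other 2. RefSeq entries were matched for 8 of the 9 genes, with 10 promoters, and Tyrobp was not matched. Of these 10 promoters, 6 hold the letters, which is a description of the sequence and not of a bound site. Fcgr3 entries that overlap are among the 6 and share the same letters, so these are not separate places. The printed stretch was overlapped by an H3K4me3 peak in 5 of 21 libraries at Trem2, 3 at Fcgr1, 0 at Fcgr4, 9 at Fcgr2b and 12 at Fcer1g, so the peaks at Fcgr4 lay elsewhere in its window. That of Fcgr2b was overlapped by an H3K27me3 peak in 13 of 20 libraries.

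Promoter cover, the share of the window that lay under peaks, is given in percent. The peaks were called by the authors in each library on its own, and a value of 0 means that no called peak reached the window, not that the mark was absent. The number of peaks per library ranged from 11249 to 46397, and the read depth behind each list is unknown. In H3K4me3 it was 11249 to 28592 in the 12-week cohort and 32225 to 41976 in the 25-week cohort, so cohort and depth of call cannot be told apart. The treatment field of the labels contradicts the title in 4 H3K4me3 libraries, namely CC_l replicate 2, both HH libraries and CCC replicate 3. The titles, under which the study's own sample list names these libraries, were used. H3K4me3 calls and gains at the 9 genes, and calls in most gene lists, are also given with the groups of the treatment field.

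The 12 adipocyte marker promoters were checked first. Between 8 and 12 of them carried an H3K4me3 peak in each library, and all 12 did in 12 of the 21 libraries. In H3K27ac, 10 of the 12 fell with obesity (median -35.4 points), where 2304 of 12123 promoters fell. In H3K4me3, 5 of 12 fell (median -14.5), where 6.34% of all promoters did. Grouped by the treatment field, 1 of 12 fell in H3K4me3 (median -13.9), where 7.69% of all promoters did. Of 15 macrophage marker promoters, 0 to 5 carried an H3K4me3 peak in the control libraries and 12 in both HH libraries. Of these 15, Adgre1, Lyz2, Mrc1, Itgam, C1qa, C1qb, Cx3cr1 and Cd163 had no H3K4me3 peak in any of 10 control libraries, and Cd163 had none in any of 21. The other 7 had one in controls, Cd14 in 9 of 10, Cd68 in 8, Spi1 in 5, Laptm5 in 4, C1qc in 3, Csf1r in 2 and Ptprc in 1. Their part in the results at the 9 genes was not tested. In bulk nuclei, fewer cells of a type and less of a mark per cell cannot be told apart.

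**Figure D1:**
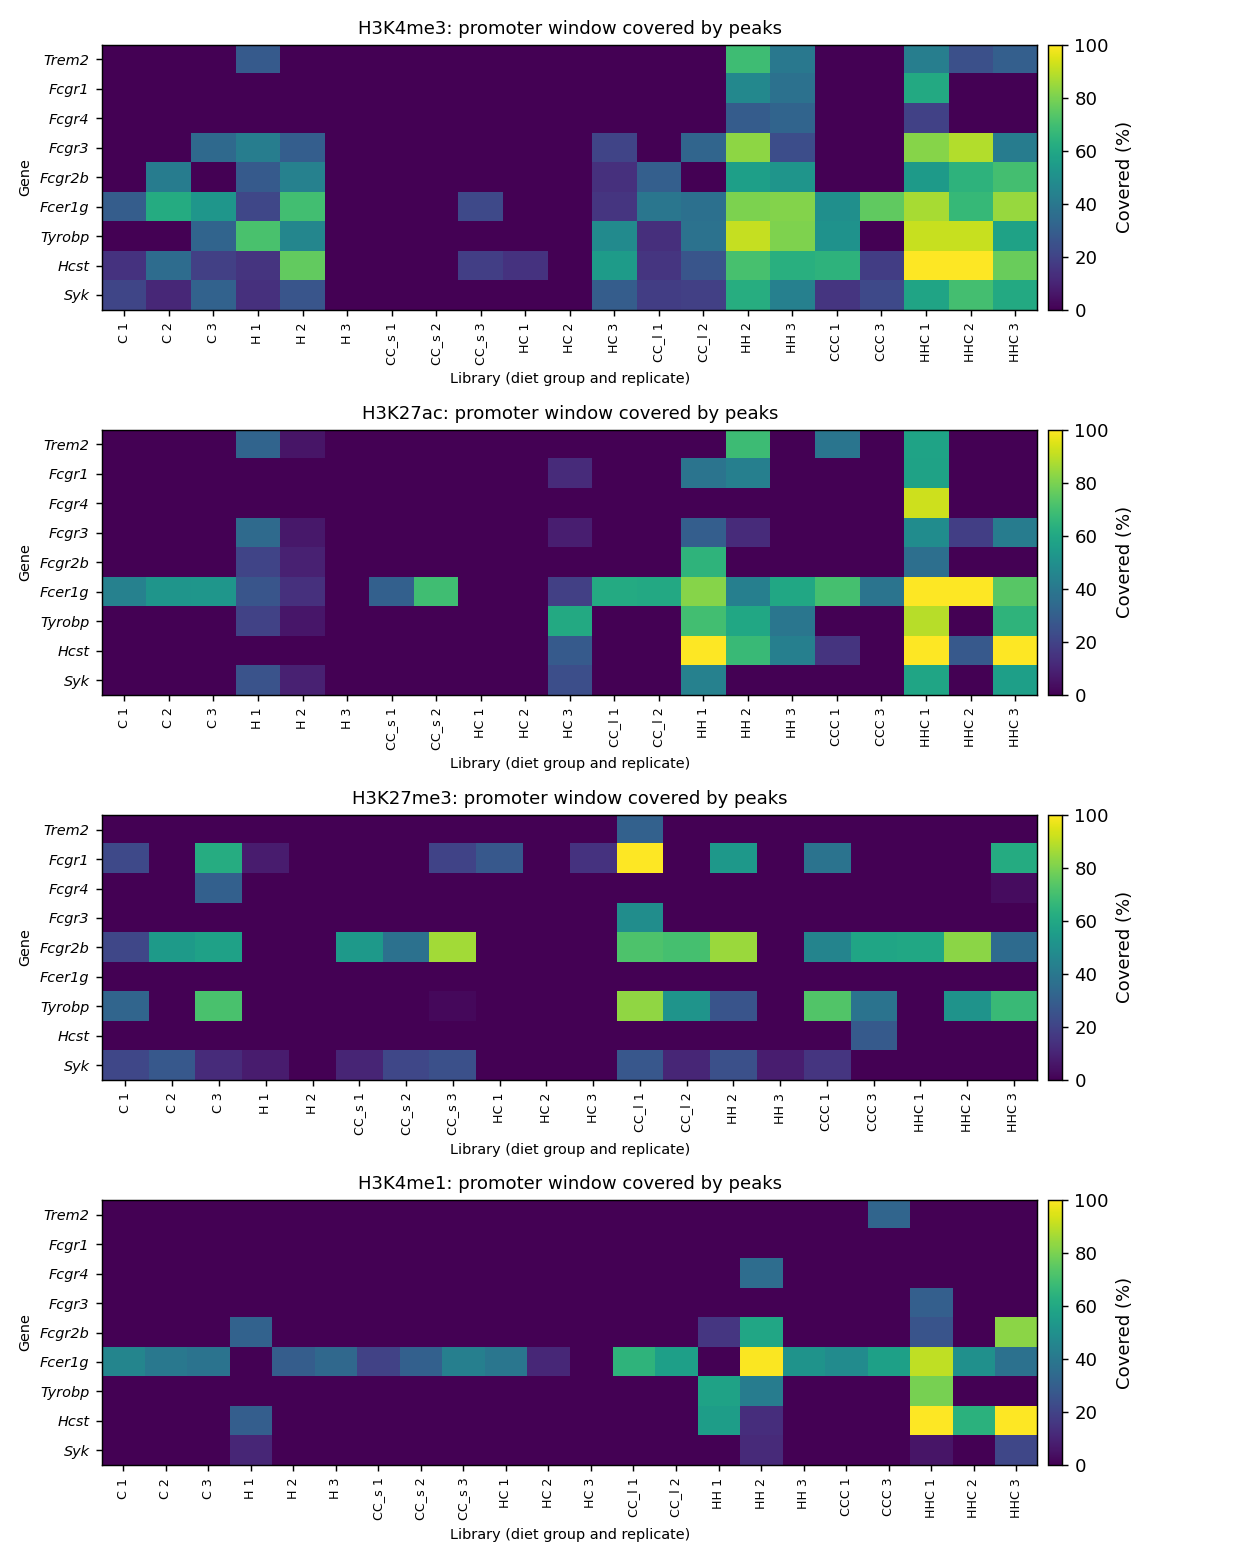
Promoter cover (colour, percent of the window under peaks) of the 9 genes (rows) in each library (columns, named by diet group and replicate) for the 4 marks. In H3K4me3 the 2 HH libraries and HHC replicate 1 show cover at all 9 genes, and in H3K27ac the control libraries show cover at Fcer1g and almost nowhere else.

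Trem2, the lipid-sensing receptor, had no H3K4me3 peak in any of the 10 control libraries. It was covered for 69.1% and 40.1% in the HH libraries and for 42.8%, 24.3% and 30.1% in the HHC libraries. In the 12-week cohort, cover was 28.4%, 0% and 0% in H and 0% in all 3 HC libraries. All 5 libraries of mice that had been obese for 25 weeks were thus marked, and neither comparison of that cohort overlapped. Trem2 was the only gene of the 9 that gained H3K4me3 in both comparisons of a cohort, where gained means a peak in every diet library and in no control library. Of all promoters, 0.426% did so in the 25-week cohort. With the stricter threshold Trem2 was gained in neither comparison, and Tyrobp, Fcgr2b and Syk were gained in both. By the treatment field, HH would hold CC_l replicate 2 and CCC replicate 3, both without a peak at Trem2. Averaged over the cohorts, neither the obese nor the weight-loss difference passed the exact permutation test. H3K27ac at Trem2 was less regular. It covered 32.2%, 5.53% and 0% in H, 0%, 68.7% and 0% in HH, and 58.1%, 0% and 0% in HHC, and CCC replicate 1 was also covered (38.7%). H3K27me3 and H3K4me1 reached the promoter in 1 control library each.

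Fcgr1, the high-affinity Fc receptor, carried H3K4me3 in 3 of 21 libraries, all of the 25-week diet groups. Cover was 46.6% and 37.2% in HH and 60.9%, 0% and 0% in HHC. Fcgr4, an activating receptor for IgG, was marked in the same 3 libraries, with 29.3% and 32.4% in HH and 19.4% in HHC replicate 1. Both genes, with Trem2, were gained in HH against CC_l, which makes 3 of 9 genes (33.3%) against 1.32% of all promoters. With the groups of the treatment field, none of the 9 was gained in that comparison, and with an equal number of peaks per library none was either. With a 500 bp window Hcst, Trem2 and Fcgr1 were gained, and with the stricter threshold Tyrobp, Fcgr2b and Syk but not Trem2, Fcgr1 or Fcgr4. At Fcgr1 the opposing mark H3K27me3 was scattered over control and diet libraries, in 5 of 10 control, 3 of 5 H and HC and 2 of 5 HH and HHC libraries. No library had H3K4me1 at the promoter of Fcgr1.

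Fcgr3, which pairs with the FcRγ chain, and Fcgr2b, the inhibitory receptor of the family, both gained H3K4me3 in HHC against CCC. Fcgr3 was covered for 82.0%, 88.4% and 41.8% in the HHC libraries and for 0% in both CCC libraries. Fcgr2b was covered for 54.5%, 64.8% and 70.2% in HHC and for 0% in both CCC libraries. With Trem2, 3 of 9 genes (33.3%) were gained there, against 1.39% of all promoters. The count was 0 with the groups of the treatment field, 1 (Hcst) with an equal number of peaks and 4 (Tyrobp, Fcgr2b, Fcgr3 and Syk) with the stricter threshold, and Fcgr3 was not among the gained genes with the start sites of the comprehensive annotation. H3K27ac at Fcgr3 was also gained in HHC against CCC, at 48.8%, 18.4% and 42% against 0%, which made 1 of 9 genes (11.1%) against 2.32% of all promoters. Over both cohorts the weight-loss difference at Fcgr2b was 33.9 points (exact permutation p = 0.05, adjusted p = 0.688 over all promoters), with 4.62 points in the 12-week and 63.2 points in the 25-week cohort. In the HC libraries Fcgr2b was covered for 0%, 0% and 13.9%, so the 12-week groups overlapped.

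Fcgr2b was also the gene with the most regular H3K27me3. It was covered in 10 of 10 control libraries, for 21.1%, 54.4% and 57.1% in C and for 53.7%, 37.4% and 86.1% in CC_s. In the 12-week diet groups it was covered in 0 of 5 libraries. In the 25-week diet groups it was covered for 84.9% and 0% in HH and for 59.6%, 82.5% and 35% in HHC, and both groups overlapped with their controls (70.5% to 72% in CC_l and 45.2% to 58.8% in CCC). Fcgr2b was lost in H against C, as were 1.61% of all promoters, and in HC against CC_s, as were 0.828%. Both losses together, in the 12-week cohort, held for 0.206% of all promoters and for 1 of the 9 genes. The loss in H and in HC stayed with a 500 bp window, an equal number of peaks, a stricter threshold and each library left out. The weight-loss difference was -59.0 points in the 12-week cohort and 7.0 points in the 25-week cohort, and the exact permutation p of this difference between cohorts was 0.035. Such a p was 0.05 or less in 9 of 176 tests at the 9 genes (5.11%) and in 9.24% of the same tests over all genes. In H3K27me3 after weight loss it was so at 5.03% of all promoters. H3K27me3 libraries of the 12-week diet groups held 21809 to 34834 peaks and their controls 24044 to 37666. The peaks of the diet groups were narrower, with median widths of 549 to 592 bp in H and 332 to 914 bp in HC against 1097 to 1425 bp in C and CC_s. They covered 16.9 to 19.97 Mb in H and 8.54 to 36.3 Mb in HC, against 43 to 64.1 Mb in the controls. The part of this in the loss was not tested.

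Fcer1g, the common γ chain of Fc receptors, behaved differently from the receptors. Its promoter carried H3K27ac in 9 of 9 and H3K4me1 in 10 of 10 control libraries, and H3K4me3 in 8 of 10. H3K27me3 reached it in none of 20 libraries. H3K27ac covered 43.8%, 52.3% and 52.7% in C and 26.5%, 13.8% and 0% in H, so that H lay below C without overlap. It covered 30.7% and 69.5% in CC_s and 0%, 0% and 19% in HC, again without overlap. In the 25-week cohort it covered 61.2% and 60.3% in CC_l and 81.9%, 43% and 59.5% in HH, which overlapped. It covered 70.6% and 38.6% in CCC and 100%, 100% and 73.9% in HHC, so there the diet group lay above its control. The weight-loss difference was -43.8 points in the 12-week cohort and 36.7 points in the 25-week cohort. The exact permutation p for the difference between cohorts was 0.01, where 9.84% of all promoters had one of 0.05 or less. Over both cohorts, 2304 of 12123 promoters fell in H3K27ac with obesity, and Fcer1g was not among them. How many promoters lay below their controls without overlap is not given here. H3K27ac peaks were narrower in the 12-week diet groups. Median widths were 477 to 801 bp in H and 1372 to 1765 bp in C. In HC they were 672 to 906 bp, and in CC_s 1232 to 1494 bp. The part of this in the Fcer1g values was not tested.

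**Figure D2:**
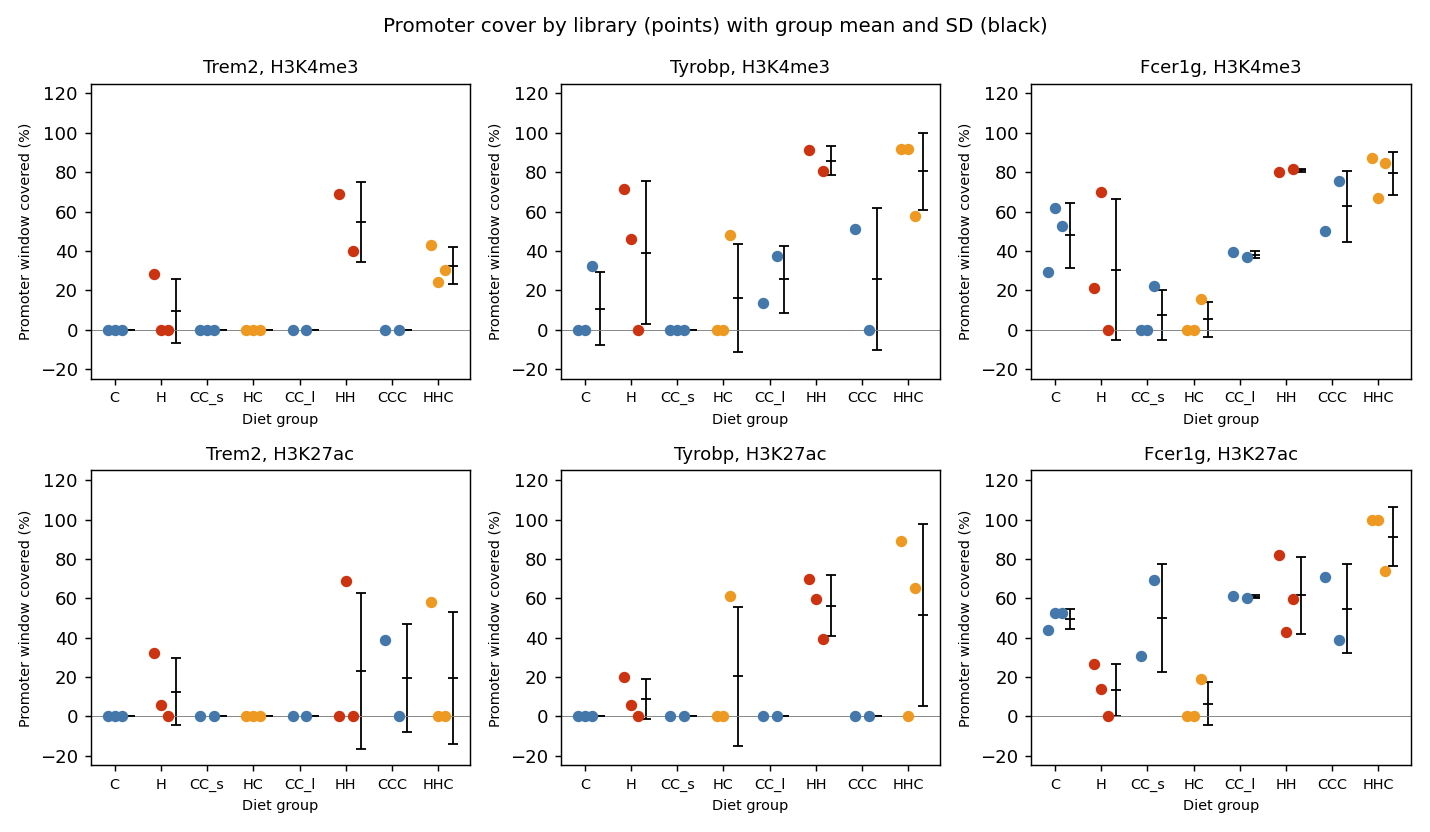
Promoter cover (percent) of Trem2, Tyrobp and Fcer1g in H3K4me3 and H3K27ac by diet group. Coloured points are libraries (blue chow controls, red obese, orange weight loss) and black marks are the group mean with its SD; in H3K4me3 the HH and HHC libraries of Trem2 and Tyrobp lie above their controls, in H3K27ac Trem2 is covered in 1 of 3 HHC and 1 of 2 CCC libraries, and Fcer1g is covered in controls as well.

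Tyrobp, the DAP12 adaptor of TREM2, is a gene the study itself names as an example, so its direction is not independent evidence. The paper names its promoter among those that stayed active after weight loss. It also names Tyrobp among genes whose expression in adipocytes returned to normal in HC and HHC. H3K27ac reached the Tyrobp promoter in 0 of 9 control libraries. Cover was 19.8%, 5.97% and 0% in H and 69.8%, 59.5% and 39.4% in HH. All HH libraries thus lay above both CC_l libraries, and the H and C libraries overlapped at 0%. The obese difference was 32.4 points (exact permutation p = 0.02, adjusted p = 0.217 over all promoters), with 8.59 points in the 12-week and 56.2 in the 25-week cohort. It was the only one of the 8 genes tested with a rise at this threshold, which 1.02% of all promoters passed in this direction. Without any 1 of the 3 HH libraries the p was 0.0667. It was 1 with an equal number of peaks per library and 0.4 with the stricter threshold. After weight loss, H3K27ac covered 0%, 0% and 60.9% in HC and 89.3%, 0% and 65.1% in HHC, and the difference of 35.9 points did not pass (exact permutation p = 0.22).

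H3K4me3 at Tyrobp was also found in some controls, for 0%, 0% and 32.1% in C, 13.6% and 37.6% in CC_l and 51.1% and 0% in CCC. It was 71.3%, 46.1% and 0% in H and 91.0% and 80.7% in HH. After weight loss it was 0%, 0% and 47.8% in HC and 91.8%, 91.5% and 57.8% in HHC. By the titles, the 25-week diet groups lay above their controls and the 12-week groups overlapped. The nearest values of HHC and CCC were 57.8% and 51.1%. How many of all promoters lay above their controls without overlap is not given here. The obese difference was 44.3 points (exact permutation p = 0.0667) and the weight-loss difference 35.4 points (exact permutation p = 0.1). With the groups of the treatment field they were 0.0583 points (exact permutation p = 1) and 12.6 points (exact permutation p = 0.25). H3K27me3 ran the other way in the obese comparison. It covered 32.7%, 0% and 71.4% in C and 83.3% and 51.9% in CC_l, against 0% in both H libraries and 25.8% and 0% in HH, a difference of -44.7 points (exact permutation p = 0.0667). The smallest p that this comparison allowed was 0.0167. After weight loss the H3K27me3 difference was -8.39 points (exact permutation p = 0.64), with 0%, 51.3% and 67.8% in HHC. H3K4me1 reached the promoter in 2 of 3 HH and 1 of 3 HHC libraries only (exact permutation p = 0.4 for the obese difference of 16.6 points, too few marked libraries for a weight-loss test).

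Hcst, the DAP10 adaptor, gained H3K27ac in HH as its neighbour Tyrobp did, and differed from it elsewhere. H3K27me3 reached the Hcst promoter in 1 of 20 libraries and that of Tyrobp in 11 of 20. Of the 6 H and HC libraries, H3K27ac reached Hcst in 1 and Tyrobp in 3. H3K27ac covered 100%, 67.7% and 43.3% of the Hcst window in HH and none in CC_l. With Tyrobp this gave 2 of 9 genes (22.2%) gained in HH against CC_l, against 0.448% of all promoters. In HHC it covered 100%, 27.8% and 100%, against 15.0% and 0% in CCC. H3K4me1 covered 100%, 64.0% and 100% in HHC and none in CCC, and Hcst was the 1 gene of 9 (11.1%) gained in that comparison, against 3.98% of all promoters. H3K4me3 was present in 8 of 10 control libraries and rose with weight loss by 33.9 points (exact permutation p = 0.045, adjusted p = 0.688). The part of the shared Nfkbid window in these values was not tested. The p was 0.08 with the groups of the treatment field, and it stayed at 0.05 or less on leaving out CC_s replicate 3, HC replicate 1 or HC replicate 2 but on leaving out none of the other 8 libraries.

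Syk, the kinase recruited by FcRγ and DAP12, had H3K4me3 in 7 of 10 control libraries. Cover was 0% in all 3 CC_s, 0%, 0% and 29.5% in HC, 15.6% and 22.1% in CCC and 58.5%, 70.1% and 60.6% in HHC. The weight-loss difference was 27 points (exact permutation p = 0.05, adjusted p = 0.688), and the p was 0.15 with the groups of the treatment field. At Fcgr2b it was 0.1 there. For both genes, leaving out HC replicate 1 or HC replicate 2 kept the p at 0.05 or less, and leaving out any of the other 9 libraries did not. Hcst, Fcgr2b and Syk were the 3 of 7 genes tested that rose in this comparison, against 5.31% of all promoters. H3K27ac reached the Syk promoter in 0 of 9 control libraries, 3 of 6 H and HC and 3 of 6 HH and HHC libraries. H3K27me3 covered 10.2%, 21.3% and 24.3% in CC_s and 15.3% and 0% in CCC. It was 0% in all 6 HC and HHC libraries, a fall of 13.1 points (exact permutation p = 0.02, adjusted p = 0.267). Syk was the 1 of 4 genes tested that fell, against 12.5% of all promoters. Without CCC replicate 1 the p was 0.1.

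**Figure D3:**
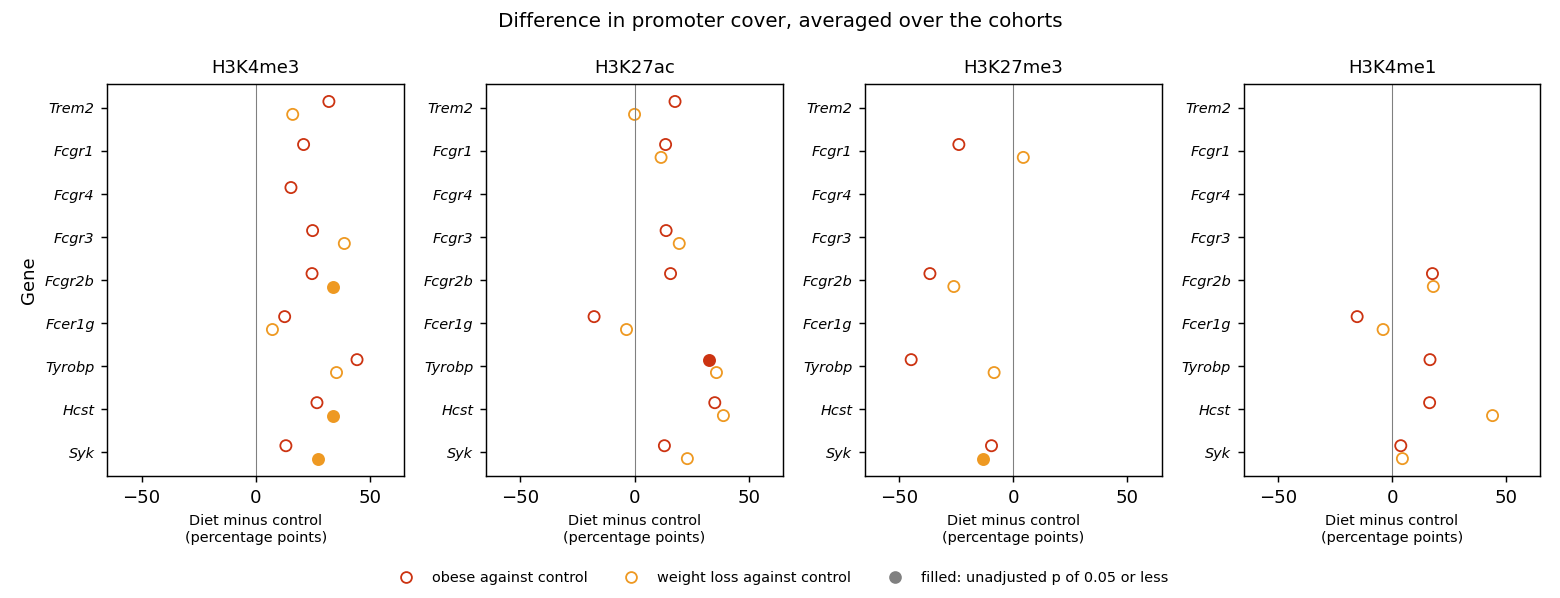
Difference in promoter cover between diet and control libraries (percentage points, averaged over the cohorts) for each gene and mark, red for the obese and orange for the weight-loss comparison. Filled points have an unadjusted exact permutation p of 0.05 or less (5 of 48), and genes covered in fewer than 2 libraries of a comparison are left out.

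Over the 4 marks and both comparisons, 48 of 72 promoter tests could be run, of which 4 were higher, 1 was lower and 43 were above 0.05 (p from 0.0667 to 1). The smallest adjusted p of these tests at the 9 genes was 0.217, and no promoter of the genome passed an adjusted 0.05 in any of the 8 comparisons. In H3K4me3, 9 of 9 genes had a positive obese difference with a median of 24.7 points, where the median of all promoters was -4.69. None of the 9 passed the test there, and only 0.0140% of all promoters did so upward. With the groups of the treatment field, 2 of 7 tested were positive with a median of -5.28, where that of all promoters was -7.23. In the weight-loss comparison of H3K4me3, 7 of 7 were positive with a median of 33.9 points, against 1.99 for all promoters. With the groups of the treatment field, 6 of 9 were positive with a median of 12.6, against 1.31. In H3K27ac, 7 of 8 were positive in the obese comparison, with a median of 14.8 against -8.46 for all promoters. The 4 genes tested in H3K27me3 had negative obese differences, with a median of -30.2 against -5.93 for all promoters, and 0 of the 4 passed, against 12.8% of all promoters. These counts describe genes that passed a filter on presence and hold no test.

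The libraries differed in how much of the module was marked. In H3K4me3 the number of the 9 promoters with a peak was 3, 4 and 5 in C, 5 and 5 in CC_l, 4 and 3 in CCC, and 0, 0 and 2 in CC_s. It was 9 and 9 in HH and 9, 7 and 7 in HHC, above every control library by the titles. By the treatment field, HH held 3 and 5, CC_l 5 and 9, and CCC 4 and 9. It was 7, 6 and 0 in H and 1, 0 and 6 in HC, so the 12-week diet groups split within themselves. H replicate 3, with 0, also held the fewest peaks of any library (11249). In H3K27ac the number was 1 in 8 of the 9 control libraries, always Fcer1g, and 3 in the other. It was 6, 6 and 0 in H, 7, 6 and 3 in HH, 0, 0 and 6 in HC and 9, 3 and 5 in HHC.

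The macrophage marker promoters moved with these counts. In H3K4me3, 12, 13 and 0 of the 15 were marked in the H libraries and 12 and 12 in those of HH. After weight loss the HC libraries had 1, 2 and 8 of them marked, and the HHC libraries 12, 10 and 11. In C the number was 4, 5 and 4, in CC_s 0, 1 and 2, in CC_l 4 and 4, and in CCC 5 and 3. By the treatment field it was 3 and 4 in HH, 4 and 12 in CC_l and 5 and 12 in CCC. Their summed cover by the titles ranged from 79.0 to 183 percentage points in CC_l and from 548 to 849 in HH, and from 150 to 199 in CCC and from 497 to 782 in HHC. The HC library with 6 of the 9 genes (replicate 3) had 8 of 15 macrophage and 8 of 12 adipocyte markers. The HH libraries, with 9 of 9 genes, had all 12 adipocyte markers, and HHC replicate 3, with 7 of 9, had 8 of 12. In H3K27ac, 8 of 12 were marked in HH replicate 1, HC replicate 3 and HHC replicate 3. In H3K27ac, HHC replicate 1 had 9 of the 9 genes, 13 of 15 macrophage markers and 12 of 12 adipocyte markers. The part of macrophage chromatin in the results at these genes was not tested.

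**Figure D4:**
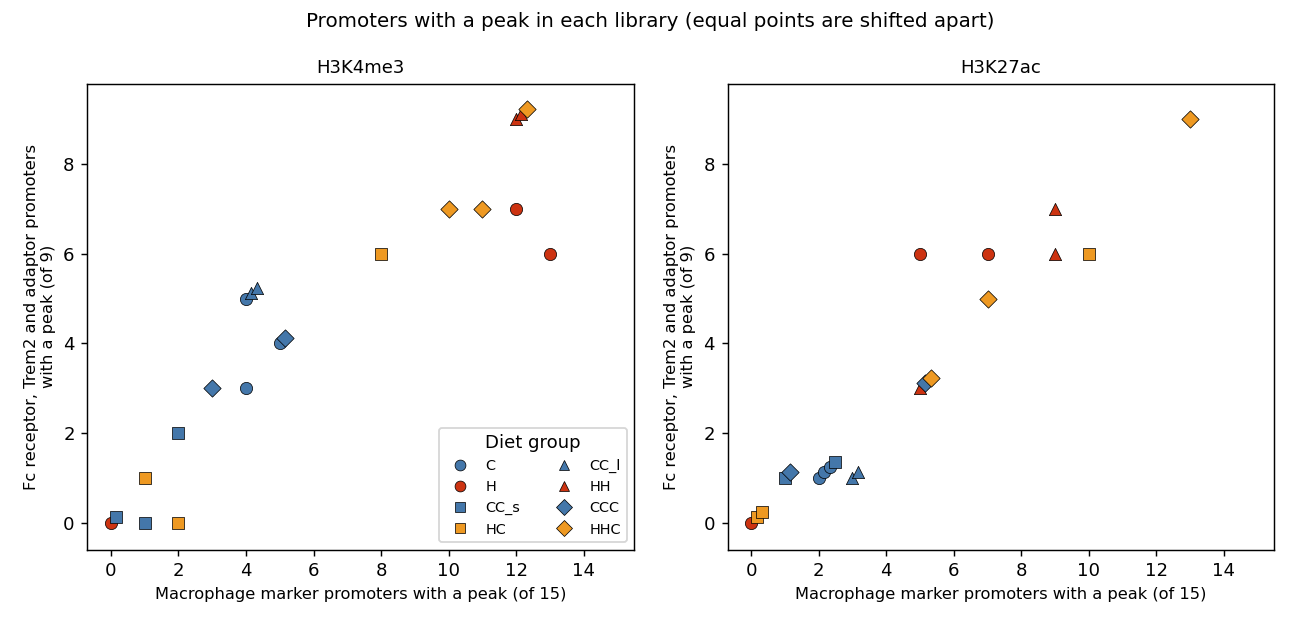
Number of the 9 promoters with a peak (vertical axis) against the number of 15 macrophage marker promoters with a peak (horizontal axis) in each H3K4me3 and H3K27ac library, by diet group. Libraries with more macrophage markers mostly hold more of the 9 genes, from 0 and 0 in H replicate 3 to 9 and 12 in HH for H3K4me3. The order is not strict, as H replicate 2 has 13 macrophage markers and 6 of the 9 genes in H3K4me3. Points are described and not tested.

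The rest of the pathway was read from 4 gene lists. Among 28 kinases and adaptors downstream of these receptors, 12 rose and 1 fell in H3K4me3 after weight loss (median difference 11.6 points), where 5.31% of all promoters rose and 1.74% fell. The 12 included the kinase Btk, the adaptor Lat2 and the phosphoinositide kinase subunit Pik3cd. In the obese comparison of H3K4me3, 1 of 26 rose (Malt1) and 1 fell (Vav2), where 6.34% of all promoters fell. In H3K27ac, 4 of 24 rose with obesity (Blnk, Lat2, Pik3ap1 and Pik3r5), where 1.02% of all promoters rose. Among 13 inhibitors tested, 4 rose in H3K4me3 after weight loss: Inpp5d and Ptpn6, phosphatases that end the signal, with Dok2 and Lilrb4a. Of the other ITAM-linked and Fc receptors, 7 of 24 could be tested in H3K4me3 and 0 rose in either comparison. Of 14 lipid-associated macrophage genes tested in H3K4me3 after weight loss, 2 rose, Cd9 and Gpnmb. With obesity, 0 of 13 rose and 0 fell in H3K4me3 (median difference -0.2345 points). In H3K27ac with obesity, 0 of 12 rose and 3 fell, Ctsb, Apoe and Lpl (median difference -13.2 points). Of all promoters, 2304 of 12123 fell there. By the treatment field, 3 of 28 kinases and adaptors, 2 of 13 inhibitors and 1 of 14 lipid-associated genes rose in H3K4me3 after weight loss, where 2.87% of all promoters did. Of 11 lymphocyte marker promoters, 3 were gained in H3K4me3 in HH against CC_l and 8 in HHC against CCC, where 1.32% and 1.39% of all promoters were. The endothelial markers Pecam1 and Cdh5 and the progenitor markers Dpp4 and Ly6c1 rose in H3K4me3 after weight loss, 2 of 5 tested in each list. Grouped by the treatment field, 0 of 6 endothelial and 1 of 5 progenitor markers rose there. Gains at the lymphocyte markers were not counted with those groups. The part of these cell types in the results was not tested.

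Outside the promoters, the gene body tests gave 6 rises and 2 falls in 56 tests, none with an adjusted p under 0.169. The Syk body showed the smallest p. H3K4me1 covered 0% of it in all 3 C libraries and 5.28%, 6.74% and 2.25% in H. It covered 1.87% and 2.15% in CC_l and 9.84%, 23.1% and 9.43% in HH, so that the groups did not overlap in either cohort. The difference was 8.43 points (exact permutation p = 0.005, the smallest this comparison allows, adjusted p = 0.251), where 7.61% of all gene bodies rose. Without either CC_l library the p was 0.1, and with an equal number of peaks it was 0.11. H3K27ac over the Syk body rose by 2.17 points (exact permutation p = 0.02), where 0.974% of all bodies rose, and that over Fcgr3 by 8.83 points (exact permutation p = 0.05). The other rises were in H3K4me3 after weight loss, by 16.6 points at Fcgr3 (exact permutation p = 0.03), 11 at Fcgr2b and 10.3 at Syk (exact permutation p = 0.05 for both), where 6.16% of all bodies rose. By the treatment field these were 8.55, 6.26 and 7.26 points (exact permutation p of 0.28, 0.2 and 0.1). H3K27me3 fell with obesity over the bodies of Fcgr3, by 4.69 points (exact permutation p = 0.0167), and Syk, by 2.25 points (exact permutation p = 0.05), where 13.7% of all bodies fell. The fall at Fcgr3 was 7.85 points without CC_l replicate 2 and 1.54 without CC_l replicate 1, and its p was 0.367 without either HH library. Of these 8 calls none was kept on leaving out each library in turn: 2 of 11 fits kept those of H3K4me3 at Fcgr2b and Syk, and 8 of 11 that of H3K27ac at Syk.

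In the 50 kb flanks, 72 tests gave 7 rises and 5 falls, with adjusted p of 0.159 or more. H3K27me3 around Tyrobp covered 32.6%, 29% and 33.8% of the flanks in C and 8.46% and 10.6% in H, without overlap. It covered 43.7% and 33.2% in CC_l and 34.3% and 22.8% in HH, which overlapped. The obese difference was -16.1 points (exact permutation p = 0.0333), where 9.87% of all flanks fell, and the overlapping flanks of Hcst gave -16.3. Around Syk, H3K27me3 fell by 5.65 points (exact permutation p = 0.0167), without overlap in either cohort. Around Fcer1g, H3K27ac fell by 4.95 points (exact permutation p = 0.03), where 24.4% of all flanks fell. H3K27me3 around Hcst fell after weight loss by 9.22 points (exact permutation p = 0.05), where 9.04% of all flanks fell. The rises in H3K4me1 with obesity were 2.71 points around Tyrobp (exact permutation p = 0.05), 5.72 around Fcgr3 (exact permutation p = 0.035), 5.12 around Fcgr4 (exact permutation p = 0.02) and 3.12 around Syk (exact permutation p = 0.04), where 9.74% of all flanks rose. The 3 rises after weight loss were in H3K4me3 around Fcgr2b and Fcgr4 (2.39 and 7.35 points) and in H3K4me1 around Fcgr1 (5.69 points), with exact permutation p of 0.035 to 0.05, where 6.10% and 6.24% of all flanks rose in these marks. By the treatment field the H3K4me3 values were 1.84 points around Fcgr2b (exact permutation p = 0.05) and 4.89 around Fcgr4 (exact permutation p = 0.105). Of these 12 flank calls, that of H3K4me1 around Fcgr4 was the only one kept on leaving out each of its 11 libraries.

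Single regions away from promoters showed where this cover lay. In H3K4me1, 3 of 37 distal regions in the 9 loci were gained in HH against CC_l, against 1.86% of such regions in the genome. One lies between genes, 18149 bp before the Tyrobp start (chr7:30391441-30395639), and was marked in 3 of 3 HH, 2 of 3 HHC and 0 of 10 control libraries. Another lies just before Syk, 2968 bp from its start (chr13:52571274-52580205), and was marked in 3 of 3 HH, 2 of 3 HHC, 2 of 3 H and 0 of 10 control libraries. The third lies 38235 bp from the Fcgr1 start, between genes (chr3:96332204-96334967). In HHC against CCC, 1 of 37 was gained, against 3.05%, a region over exons of Adamts4 in the flank of Fcer1g (chr1:171260148-171264610). In H3K27ac, 3 of 48 distal regions were gained in HHC against CCC, against 2.44%. They were 2 neighbouring regions before Syk (chr13:52571278-52574107 and chr13:52574934-52580004) and 1 behind Fcgr1 (chr3:96277077-96278941), which was also marked in 2 of 2 CC_l, 2 of 3 HH and 1 of 3 HC libraries. A single region was gained in H against C, against 0.106%, at the outer end of Fcgr3 (chr1:171062991-171083339). It was marked in 3 of 3 H and 0 of 3 C libraries, and in 3 of the 4 CC_l and CCC libraries as well. Of these regions 0 were lost in any comparison. The most often marked H3K27ac region near Trem2, over an exon of Treml2, was marked in 1 of 21 libraries.

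The outer end of Fcgr3 was looked at more closely after its values were seen. A protein-coding start of the comprehensive annotation lies there, at position 171064935 of chromosome 1, outside the promoter window used above. An H3K4me3 peak covered this position in 21 of 21 libraries, and an H3K27me3 peak did so in 19 of 20. In all 10 control libraries the H3K27me3 peak was a domain of 22330 to 24135 bp that ran outward from the gene. In H it was missing in replicate 1 and 2615 bp wide in replicate 2. Its widths in the 3 HC libraries were 9544, 1506 and 21821 bp. In HH and HHC it was 21926 to 24274 bp wide, which overlapped with the controls, although HH replicate 3 (21926 bp) lay below each of them. Median widths of all H3K27me3 peaks were 549 to 592 bp in H and 332 to 914 bp in HC. In C and CC_s they were 1097 to 1425 bp. The part of this in the width of the domain was not tested. H3K27ac peaks covered the position in 2 of 3 H, 3 of 3 HH and 3 of 3 HHC libraries, in 0 of 3 HC libraries and in 1 of 9 controls. Marks of opposite kinds thus lay at 1 place in the same groups of nuclei, and no list of high-signal regions was used here to remove such places. The paper states that it removed peaks in regions of a mouse blacklist, which is such a list. Whether the peak lists used here precede that step is not stated.

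**Figure D5:**
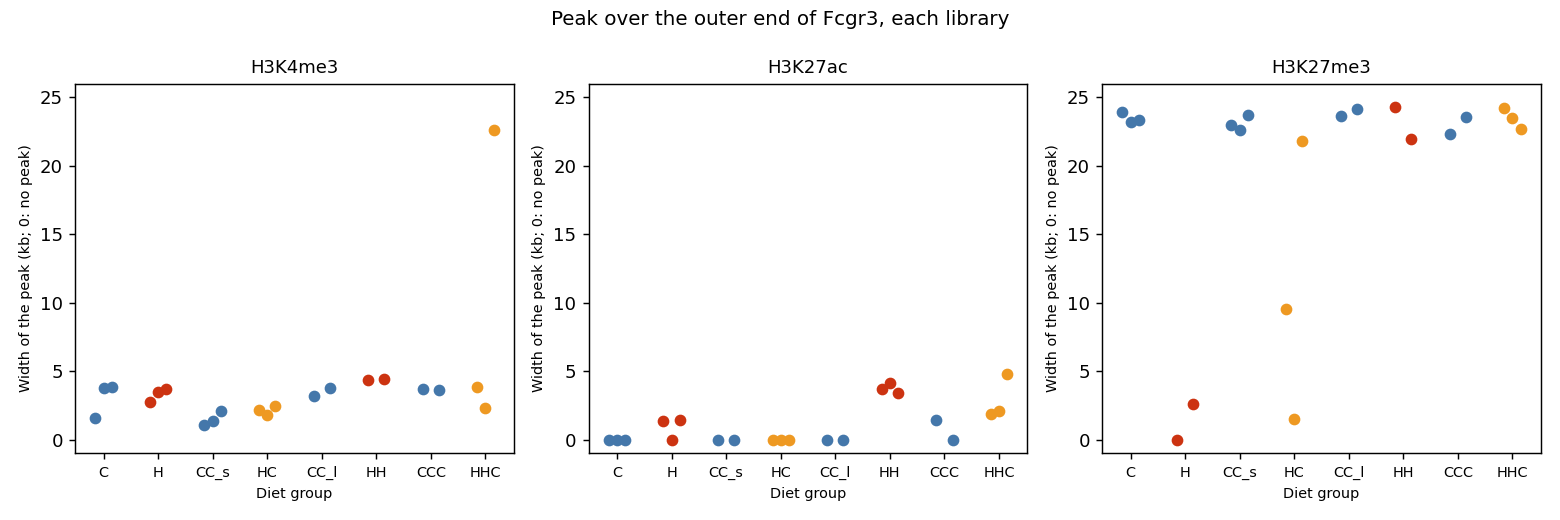
Width (kb) of the peak that covers the outer end of Fcgr3 in each library, for H3K4me3, H3K27ac and H3K27me3, by diet group (blue controls, red obese, orange weight loss; 0 where no peak covers it). The H3K27me3 domain is 22330 to 24135 bp wide in the control libraries. It is narrower or missing in both H and all 3 HC libraries, with 21821 bp in HC replicate 3. HH replicate 3, with 21926 bp, also lies below the controls.

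The genes most like 3 of the members in presence of a promoter peak were taken from more than 1 Mb away. For Trem2 in H3K4me3 they were Cd300a, Cyyr1 and Selplg, each with the same call in 21 of 21 libraries. For Tyrobp in H3K4me3 they were Themis2, Def6 and Myo1g (20 of 21), and in H3K27ac C1qc (21 of 21), H2-DMb2 and Lat2 (20 of 21). For Fcer1g they were Tspan2, Upp1 and Abcg2 in H3K4me3 and Cln3, Il4i1 and Prkcd in H3K27ac, each with the same call in 21 of 21. For Trem2 in H3K27ac, marked in 5 of 21 libraries, they were H2-Ob (20 of 21), Msi2 and Ear2 (19 of 21). All libraries come from few groups of 1 tissue, and such likeness is a description.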

How the data were processed

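Labelled adipocyte nuclei of mouse epididymal fat were profiled for 4 histone marks. Per the labels, the authors used Trim Galore 0.6.6, Bowtie2 2.4.4, SAMtools 1.13, bedtools 2.30 and SEACR 1.3 (stringent, threshold 0.01), on each library separately, with build mm10 (GRCm38). The deposited columns hold total and highest signal, in whole fragments and not scaled between libraries. Signal served only to rank peaks within a library. No reads were used, so depth is unknown and precision rests on the number of libraries.

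Windows came from GENCODE release M21, basic set (21851 genes, 41438 start sites). Cover was compared by a two-sided exact permutation test, in which labels moved only inside a cohort and both cohorts weighed equally, for every gene covered in at least 2 libraries (numpy 2.4.6). p-values were Benjamini-Hochberg adjusted over all genes. The test was also run on simulated data, in which changed genes rose alike in every diet library of both cohorts. That run does not cover changes that differ between cohorts or libraries. Values are named for those of the 8 Tyrobp promoter tests that could be run and for tests at p of 0.05 or less. Alternatives were a 500 bp window, equal peak numbers, the upper 50% of peaks, presence, 200 bp overlap, log2 with a pseudocount of 100 bp, a replicate block, left-out libraries and the treatment field. The members and lists were chosen with earlier results of these data known. One listed gene was not annotated as protein-coding (Clec7a) and was not analysed here. Some genes are not reported here.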

Additional observations from a re-analysis of the deposited data

Results flagged for a closer look

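The effects of diet in the 12-week and 25-week cohorts were compared by a test of the difference itself. In 9 of 176 tests (5.11%) the unadjusted exact permutation p was 0.05 or less, as it was in 9.24% of these tests over all genes. Values are the 12-week difference minus the 25-week difference, in percentage points of cover. At the Fcer1g promoter the H3K27ac weight-loss difference was -80.5 points apart (p = 0.01, exact permutation), from -43.8 to 36.7, and over its body -38.6 (p = 0.02, exact permutation) and its flanks -15.0 (p = 0.02, exact permutation). At the Fcgr2b promoter the H3K27me3 weight-loss difference was -66.0 points apart (p = 0.035, exact permutation). In H3K27me3 after weight loss the Fcgr3 body (-3.60), and the flanks of Trem2 (-5.63), Fcgr2b (-11.5) and Fcgr4 (-11.3), had lower differences in the 12-week cohort, with exact permutation p of 0.01 to 0.04. The flanks of Fcgr1 differed by -11.1 points in H3K4me3 with obesity (p = 0.0333, exact permutation), where 43.2% of all flanks had such a p of 0.05 or less. In H3K27ac after weight loss, 9.84% of all promoters, 6.16% of all bodies and 9.61% of all flanks had one. The respective shares in H3K27me3 after weight loss were 5.03%, 5.44% and 9.54%. The flanks of Fcgr2b and Fcgr4 overlap and are not separate results. The cohorts also differ in the number of peaks per library, and the part of this in these values was not tested.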

How the results depend on the processing

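All values here are counts of the 9 genes, or of gene and mark tests, unless said otherwise. Promoter calls in H3K27ac with obesity (1 higher) became 0 with equal peak numbers, 0 with the stricter threshold and 2 with comprehensive start sites, and log2 cover added 1 lower. In H3K27me3 with obesity 1 lower call appeared with the 500 bp window, presence, log2 cover and comprehensive starts. In H3K4me3 after weight loss 3 higher became 1 with equal peaks, 1 with the stricter threshold and 0 by the treatment field. In H3K27me3 after weight loss 1 lower became 0 with the 500 bp window and 0 with the stricter threshold. Gene bodies higher with obesity were 1 with equal peaks and 1 with the stricter threshold. After weight loss they were 0, 1 and, by the treatment field, 0. Flanks higher with obesity were 2 with the stricter threshold, and after weight loss 1 with equal peaks, with 2 lower under either peak selection. Gains in H3K4me3 were 0 in HH and 1 in HHC with equal peaks, and 0 and 0 by the treatment field, and with the stricter threshold 3 in HH and 4 in HHC, without Trem2. Gains in H3K27ac were 0 in HH and 0 in HHC with equal peaks and with the stricter threshold, and 0 in HHC with the 500 bp window or comprehensive starts. The gain in H3K4me1 was 0 under both peak selections. Losses of H3K27me3 were 2 in H with the 500 bp window and 1 in HC with the stricter threshold. The gains, losses and comprehensive starts under alternatives were added after the data were seen.

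Leaving out single libraries gave promoter ranges of 0 to 2 (H3K4me3 obese, higher), 0 to 5 (H3K4me3 weight loss, higher), 0 to 1 (H3K27ac obese, higher and lower; H3K27me3 and H3K4me1 obese, lower) and 0 to 2 (H3K27me3 weight loss, lower). Bodies ranged from 2 to 6 higher and 0 to 3 lower with obesity, and 0 to 5 higher and 0 to 1 lower after weight loss. Flanks ranged from 1 to 7 higher and 1 to 7 lower, and 1 to 6 higher and 0 to 2 lower. Gains ranged from 2 to 4 (H3K27ac HH), 1 to 3 (H3K27ac HHC) and 1 to 3 (H3K4me1 HHC), and losses from 1 to 2 (H3K27me3 H). The H3K27me3 weight-loss difference at Tyrobp, which did not pass, turned to 4.69 points with the 500 bp window and ranged from -17.1 to 1.54 on leaving out single libraries, with 0.304 without CCC replicate 1 and 1.54 without HHC replicate 1. With the replicate block the H3K27ac difference at Tyrobp was 36.6 points, but its 3 to 5 pairs allow no p under 0.0625, so the block could end every call and says nothing of stability. Without a C library the H3K27me3 obese comparison allows no p under 0.0556. Over 36 same-numbered pairs the deviations correlated between -0.430 and 0.192, so the numbers were not taken as pairs. The cause of these changes was not tested.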
